A study of Mus musculus with 5 samples.

Results

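The genes of the actomyosin machinery described here are the myosin heavy chains (Myh), the unconventional myosins (Myo), the myosin light chains (Myl), the light chain kinase Mylk, the tropomyosins (Tpm) and the actinins (Actn). They were taken by symbol from the annotation, as every protein-coding gene whose symbol starts with Myo, Myl, Myh, Tpm or Actn followed by a digit, plus Mylk. The rule found 61 genes, of which 56 had a row among the 27843 genes of the count table. Myh1, Myl1, Myl3, Myo3a and a second gene annotated as Myl12b were not analysed here. The RNA came from lymphatic endothelial cells (LECs) sorted from lymph nodes of C57BL/6 mice aged 8 weeks. The 2 knockout (KO) libraries came from mice with the genotype Ccl19 Cre Rankl flox/flox, and the 3 control (WT) libraries from Rankl flox/flox littermates with no Cre named, so the controls carry the floxed alleles too. Ccl19 Cre acts in Ccl19-expressing stromal cells, and the design is of a deletion of the cytokine RANKL in the stroma around the LECs. How many animals went into a library is not stated, and p-values measure only the spread between these libraries.

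Non-muscle myosin II is a motor built from heavy chains, which bind actin and split ATP, and from essential and regulatory light chains that sit on the neck of each heavy chain. Phosphorylation of the regulatory light chain by MLCK, the product of Mylk, or by the ROCK kinases switches the motor on, and contraction of actin bundles then pulls on the junctions between endothelial cells. Tropomyosins run along actin filaments and set which motors may bind, and actinins crosslink the filaments into bundles. Unconventional myosins do not form thick filaments and instead carry cargo, tether membranes to actin or regulate small GTPases.

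Library totals were 52839375 to 70171307 reads. Pecam1 (CD31), a gene of the sort gate, had a log2 fold change (KO minus WT) of -0.00 ± 0.09 (SE), and Pdpn, the other positive marker, had 0.22 ± 0.12. Prox1, the transcription factor of lymphatic fate, averaged 868 ± 22.9 CPM (reads of a gene scaled to library size) in KO and 1459 ± 103 CPM in WT (SD, n = 2 and 3), and was called lower in KO (edgeR adjusted p = 0.019). Of 9 lymphatic markers, all tested, Prox1 was the 1 called lower, and 2 were called higher, the chemokine gene Ccl21a (3.79 ± 0.57, edgeR adjusted p = 0.020) and Mmrn1 (1.56 ± 0.25, edgeR adjusted p = 0.022). Among all tested genes, 3.99% were called lower and 3.25% higher. Tnfsf11, which encodes RANKL, had 0 to 9 reads in KO libraries and 9 to 27 in WT libraries, and such low counts, in cells that are not the stated target of the deletion, do not check the genotype.

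Of the 56 genes, 38 passed the filter on low counts and were tested, 6 were called higher and 4 lower in KO, and 28 were not called (edgeR quasi-likelihood test with Benjamini-Hochberg adjustment over all genes, threshold 0.05). Over all 15874 genes tested, 3.25% were called higher and 3.99% lower, against 15.8% and 10.5% of the tested actomyosin genes. The latter are longer, with a median of 6771 exon bases against 4117 for all tested genes, and calls varied with length. Of all tested genes of 5 to 8 kb, 8 to 12 kb and above 12 kb, 5.15%, 9.87% and 12.5% were called lower. Of those of 1.5 to 3 kb, 5.06% were called higher. The 6 higher genes were 4 light chains (Myl9, Myl6, Myl12a and Myl12b) and 2 tropomyosins (Tpm2 and Tpm4). The 4 lower genes were the heavy chain Myh9 and 3 unconventional myosins, of which Myo18a and Myo9b are described here. Counts from sorted pools do not tell fewer cells of a type from less RNA per cell. Each of the 10 calls was lost when any of the 3 WT libraries was left out, which left 1.74%, 1.12% and 0.0705% of all genes called without WT1, WT2 and WT3.

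The number of calls depended on the setting, among the actomyosin genes as among all genes. Without KO1, edgeR called 4 higher and 7 lower (3.67% and 6.76% of all genes), and without KO2 5 higher and 7 lower (4.76% and 5.67%). DESeq2 called 7 higher and 8 lower (8.94% and 10.5% of all genes), and edgeR at a threshold of 0.1 called 7 higher and 9 lower (7.48% and 8.55%).

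**Figure D1:**
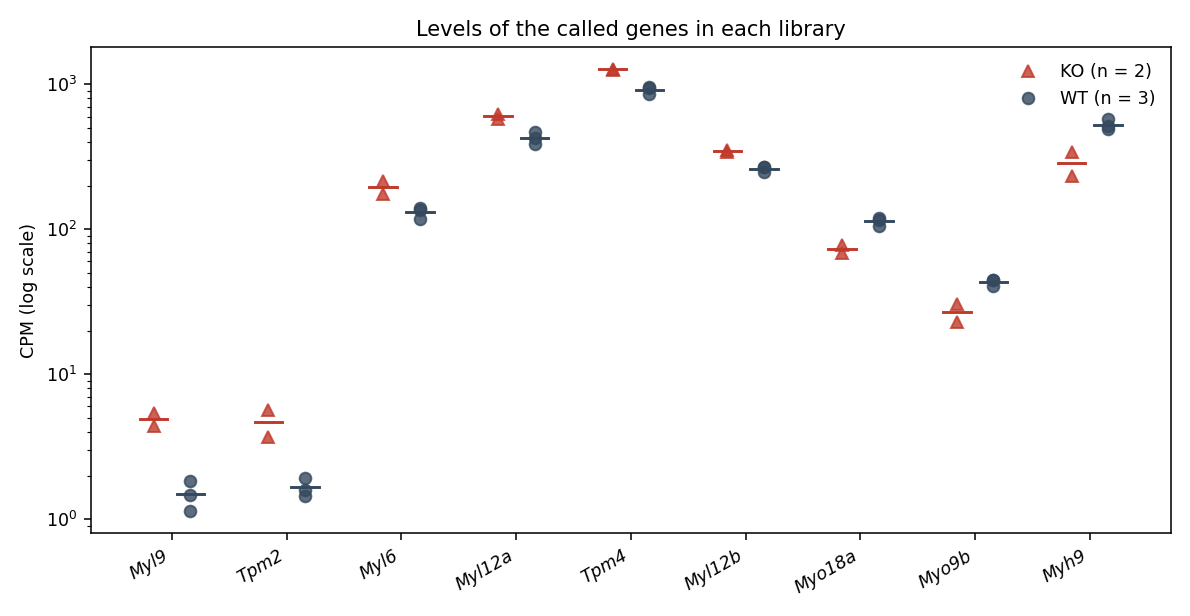
CPM (vertical axis, log scale) of 9 of the 10 called genes, ordered by log2 fold change, with 1 point per library (triangles, 2 KO libraries; circles, 3 WT libraries) and a bar at each group mean. The KO points lie above all WT points for the 4 light chains and 2 tropomyosins on the left and below them for the 3 myosin heavy chain and unconventional myosin genes on the right.

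The regulatory light chains of non-muscle and smooth muscle myosin are shown first because all 3 of the genes that encode them, Myl9, Myl12a and Myl12b, were higher in KO. The stretches below are coding bases 25 to 84 of each gene (GENCODE M21 transcripts), and the capitals mark the adjoining threonine and serine codons that MLCK and the ROCK kinases phosphorylate.
Myl9: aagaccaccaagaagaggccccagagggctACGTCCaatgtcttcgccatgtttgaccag
Myl12a: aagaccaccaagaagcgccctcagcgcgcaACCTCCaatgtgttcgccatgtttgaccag
Myl12b: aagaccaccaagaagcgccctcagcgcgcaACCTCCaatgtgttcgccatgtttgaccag
The stretches of Myl12a and Myl12b are the same letter for letter. Over their whole coding sequences of 516 bases, Myl12a and Myl12b share 96.5% of bases and a run of 102 identical bases, longer than the 50-base reads, so how the counting split reads between these neighbours on chromosome 17 is uncertain. Myl9 shares 85.7% of coding bases with Myl12a and 86.4% with Myl12b, and 0 stretches of 50 bases with either.

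Myl9 (ENSMUSG00000067818, chromosome 2, 156775420 to 156781658 on mm10), the regulatory light chain of smooth muscle and of other contractile cells, showed the largest fold among the called genes. It had 5.42 and 4.42 CPM in KO1 and KO2, against 1.48, 1.14 and 1.83 CPM in WT1, WT2 and WT3, from 257 to 297 reads per KO library and 71 to 105 reads per WT library. Both KO libraries lay above every WT library. The log2 fold change was 1.73 ± 0.27 (SE, edgeR adjusted p = 0.020), a 3.32-fold difference of the mean CPM, and it stayed between 1.57 and 1.91 when any library was left out.

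Myl12a (ENSMUSG00000024048, chromosome 17, 70993656 to 71002878) and Myl12b (ENSMUSG00000034868, chromosome 17, 70973133 to 70990890) encode the widely expressed regulatory light chains and made up most of this family. Myl12a had 576 and 625 CPM in KO libraries and 391, 430 and 468 CPM in WT libraries. Myl12b had 340.2 and 351 CPM in KO libraries and 248, 268 and 270.4 CPM in WT libraries. For both genes the KO libraries were the highest. The log2 fold changes were 0.48 ± 0.11 for Myl12a (SE, edgeR adjusted p = 0.047) and 0.40 ± 0.09 for Myl12b (edgeR adjusted p = 0.045), both close to the threshold. Both calls were also lost without KO2, at log2 fold changes of 0.42 and 0.37.

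Myl6 (ENSMUSG00000090841, chromosome 10, 128490860 to 128494145), the essential light chain that non-muscle myosins use, had 177 and 215 CPM in KO libraries and 117, 136 and 141 CPM in WT libraries. Its groups did not overlap either, with a log2 fold change of 0.58 ± 0.12 (SE, edgeR adjusted p = 0.043), and this call too was lost without KO2 (0.42). Myl6b, its neighbour on chromosome 10 and an essential light chain found mainly in muscle, had 3 to 4 reads in KO libraries and 5 to 9 in WT libraries. Myl4, the essential light chain of embryonic muscle and the atrium, was the 1 tested light chain that was not called. It had 7.01 and 10.5 CPM in KO and 9.98, 8.64 and 10.7 CPM in WT, and the groups overlapped.

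Of 9 light chain genes in the table, 5 passed the filter, 4 were called higher and 0 lower, and their median log2 fold change was 0.48, against -0.00 over all tested genes. The 4 that did not pass, Myl2, Myl6b, Myl7 and Myl10, had at most 27 reads over the 5 libraries. They are muscle light chains apart from Myl10, whose role is less well described.

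The kinase gene Mylk did not follow the light chains. It had 109.9 and 156 CPM in KO1 and KO2 and 155, 141 and 163 CPM in WT libraries, so KO1 lay below all WT libraries and KO2 among them. The fit gave it a log2 fold change of -0.20 ± 0.16 (SE). With KO2 left out this was -0.49, and Mylk was called lower (edgeR adjusted p = 0.041), in a fit where KO1 alone stands for its group and is assumed to vary like the WT libraries, as in every fit without a KO library. The muscle kinases Mylk2 and Mylk4 stood at 0.189 CPM or less in every library, and Mylk3 had a log2 fold change of -0.40 ± 0.23.

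Of 30 genes that control light chain phosphorylation, 28 were tested, 2 were higher and 2 lower, at a median log2 fold change of 0.02. Over all tested genes, 3.25% were called higher and 3.99% lower. Of the higher genes, Rhoc, a small GTPase that acts upstream of the ROCK kinases, had 79.3 and 86.9 CPM in KO and 57.1, 58.2 and 59.4 CPM in WT (0.51 ± 0.08, SE, edgeR adjusted p = 0.023). The lower genes were Arhgef11, an exchange factor for small GTPases, at 20.0 and 17.1 CPM in KO and 37.5, 29.5 and 31.5 CPM in WT, and Cdc42bpb, the kinase MRCK beta that also phosphorylates light chains, at 39.3 and 30.5 CPM in KO and 55.8, 53.4 and 54.0 CPM in WT. The ROCK kinase genes Rock1 and Rock2 had log2 fold changes of -0.07 ± 0.08 and 0.19 ± 0.09 (SE), and the phosphatase genes Ppp1r12a and Ppp1cb 0.17 ± 0.08 and 0.01 ± 0.10, none of them called.

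Among the heavy chains, Myh9 fell and was the 1 called gene. Myh9 (ENSMUSG00000022443, chromosome 15, 77760587 to 77842175) encodes the heavy chain of non-muscle myosin IIA, the main myosin II of endothelial cells. It had 339.7 and 234 CPM in KO1 and KO2, against 575, 514 and 493 CPM in WT1, WT2 and WT3, from 13627 to 40801 reads per library. The KO libraries were both below the WT libraries but also apart from each other, by 1.45-fold. The log2 fold change was -0.88 ± 0.17 (SE, edgeR adjusted p = 0.033), and -0.64 without KO2 and -1.18 without KO1.

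The other non-muscle heavy chains were not called, and their difference from Myh9 was not tested. Myh10 (myosin IIB) had 14.0 and 17.9 CPM in KO libraries and 13.0, 16.4 and 10.4 CPM in WT libraries, overlapping groups with a log2 fold change of 0.26 ± 0.21 (SE, 0.07 to 0.45 with a library left out). Myh14 (myosin IIC) had 0.676 and 1.62 CPM in KO and 1.25, 0.977 and 1.06 CPM in WT, with a log2 fold change of 0.06 ± 0.44 that was -0.70 without KO2 and 0.55 without KO1. The smooth muscle heavy chain Myh11 had 4.80 and 2.61 CPM in KO and 1.76, 1.39 and 3.29 CPM in WT, with KO1 above and KO2 among the WT values and a log2 fold change of 0.79 ± 0.43 that was not called (0.28 without KO1).

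Myh15, a little-studied heavy chain of the muscle type, had 28 reads in KO1 and 0 in KO2, against 331, 154 and 154 reads in WT1, WT2 and WT3. KO libraries stood at 0.511 and 0 CPM and WT libraries at 4.66, 2.47 and 2.96 CPM, which do not overlap. The fit gave a log2 fold change of -3.73 ± 1.04 (SE, edgeR adjusted p = 0.076), which was not called with all libraries. It was called lower with either KO library left out, when 1 KO library stands for the group. The embryonic heavy chain Myh3 stood at 0.365 and 0.602 CPM in KO and 0.465, 0.272 and 1.14 CPM in WT.

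Of 13 heavy chains in the table, 6 were tested, 0 were higher and 1 lower, and the median log2 fold change stood at -0.15. The 7 others, Myh2, Myh4, Myh6, Myh7, Myh7b, Myh8 and Myh13, had at most 29 reads over the 5 libraries. Myh4, the fast skeletal muscle form, had 0 reads in each of them, which allows up to 0.0577 CPM in the shallowest library (3 reads, counting error only). Of 8 genes on a list of skeletal muscle markers, Mylpf was the 1 that could be tested, and the list summed to 0.584 and 0.842 CPM in KO libraries and 0.539 to 0.897 CPM in WT libraries. On the list of sarcomere genes, Ttn, which encodes titin, stood higher, at 14.2 and 12.1 CPM in KO and 23.8, 18.3 and 17.0 CPM in WT, and was not called. The part of muscle cells in the heavy chain values was not tested.

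**Figure D2:**
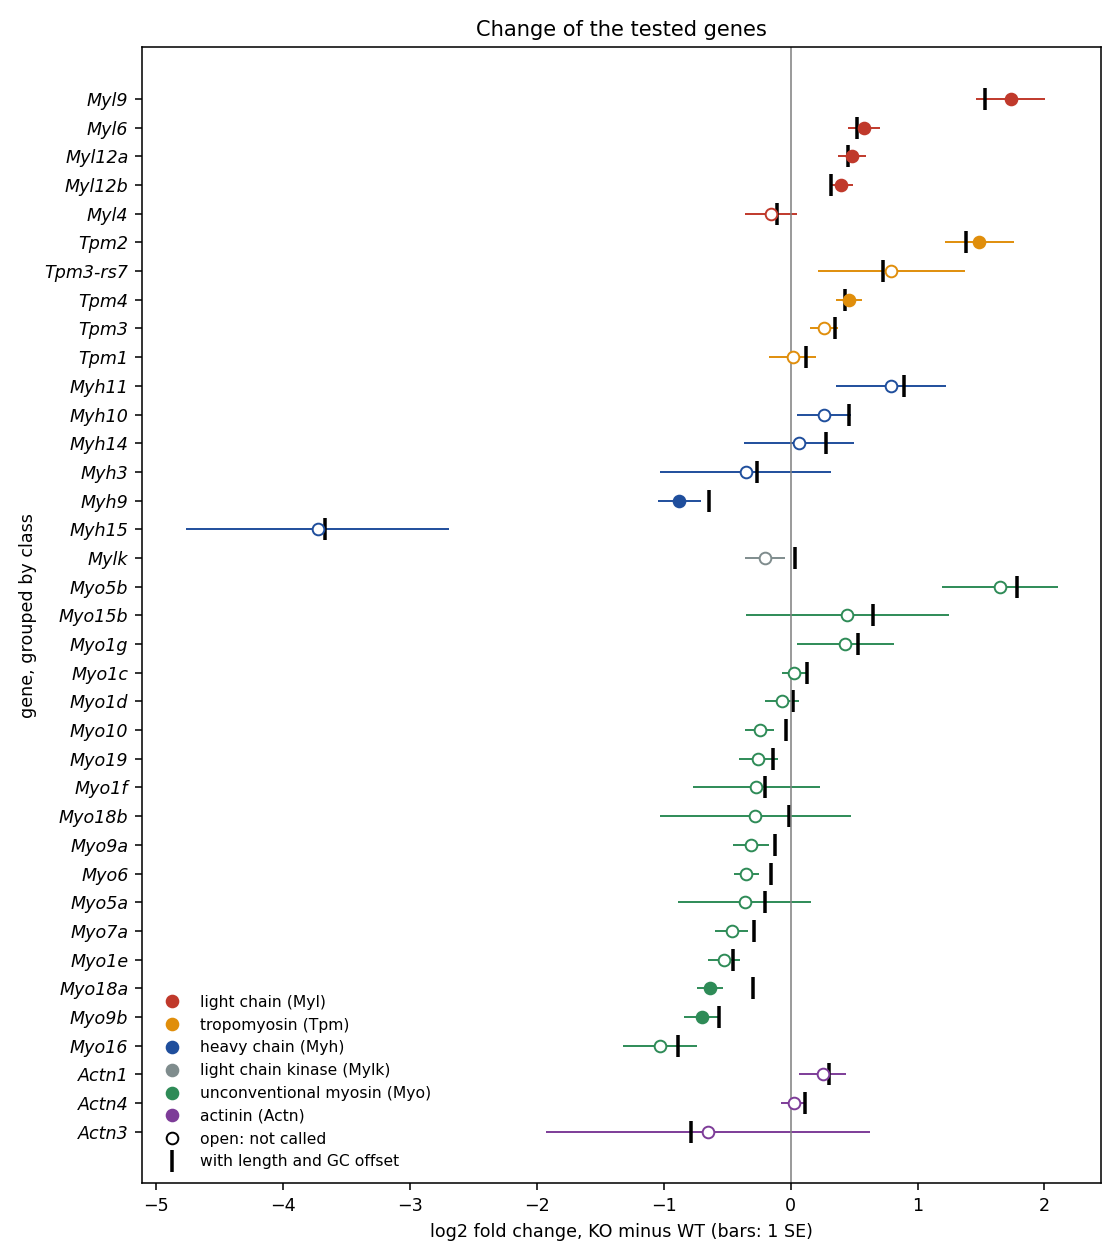
Log2 fold change, KO minus WT (horizontal axis), of 37 of the 38 tested genes, ordered by class and size (vertical axis), with bars of 1 SE; filled points were called, open points were not, and black ticks give the value with an offset for GC content and exon length. Light chains and tropomyosins lie mostly right of 0 (medians 0.48 and 0.46) and unconventional myosins mostly left of it (median -0.30).

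The unconventional myosins were the largest class, with 24 genes in the table and 18 tested, of which 0 were higher and 3 lower. The log2 fold change was negative for 14 of the 18 (13 in limma-voom) and the median was -0.30. With the offset for GC content and exon length it was negative for 13, and the median was -0.15. These genes are long, with a median of 9166 exon bases, and all tested genes of 8 to 12 kb had a median log2 fold change of -0.15. Both KO libraries lay below all WT libraries for 10 of the 18 and above them for 1, where 22.5% and 22.8% of all tested genes did so.

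Myo18a (ENSMUSG00000000631, chromosome 11, 77763246 to 77865980), which associates with the Golgi and with myosin II filaments and has little motor activity of its own, had 68.5 and 78.2 CPM in KO libraries and 119.9, 117 and 106 CPM in WT libraries. Its log2 fold change was -0.64 ± 0.10 (SE, edgeR adjusted p = 0.022). The replicates of each group were close to each other and the groups lay well apart.

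Myo9b (ENSMUSG00000004677, chromosome 8, 71272714 to 71360713), a motor whose tail carries a GTPase-activating domain that switches small GTPases off, had 30.5 and 22.9 CPM in KO libraries and 45.0, 44.5 and 40.7 CPM in WT libraries. Its log2 fold change was -0.70 ± 0.14 (SE, edgeR adjusted p = 0.034), and it lost its call with library totals alone (edgeR adjusted p = 0.055, where 3.22% of all genes were called lower). Its relative Myo9a, which carries such a domain as well, had 20.2 and 15.8 CPM in KO and 23.7, 23.2 and 20.3 CPM in WT, with all KO values below the WT values by a small margin and a log2 fold change of -0.31 ± 0.14 that was not called.

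Myo1e, a class I motor of the cell cortex and of endocytosis, missed the threshold narrowly. It had 280.4 and 313 CPM in KO libraries and 482, 386 and 413 CPM in WT libraries (log2 fold change -0.53 ± 0.12, SE, edgeR adjusted p = 0.052). DESeq2, which called 10.5% of all genes lower, called it lower (DESeq2 adjusted p = 0.0015), and limma-voom put it just under the threshold (limma-voom adjusted p = 0.048). With the offset for GC content and exon length it stood at -0.45 and was not called (edgeR adjusted p = 0.11). Myo7a, known from hair cells, had 204 and 156 CPM in KO and 242, 264 and 239 CPM in WT, and Myo6, which walks towards the minus end of actin, had 83.3 and 89.1 CPM in KO and 119, 109.9 and 101 CPM in WT. Both had KO values below all WT values, at log2 fold changes of -0.46 ± 0.13 and -0.35 ± 0.10 (SE, edgeR adjusted p = 0.078 and 0.082), and neither was called by edgeR. DESeq2 called both lower (DESeq2 adjusted p = 0.013 and 0.023), and edgeR called Myo7a lower without KO1 (edgeR adjusted p = 0.019).

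Other motors of class I and class X showed small differences. Myo1c, which links membranes to cortical actin, had 639 and 576 CPM in KO and 596, 619.7 and 572 CPM in WT, with a log2 fold change of 0.03 ± 0.10 (SE) and overlapping groups. Myo1d had 64.4 and 47.4 CPM in KO and 58.7, 59.0 and 57.7 CPM in WT (-0.06 ± 0.13), again overlapping. Myo10, the motor of filopodia, had 39.2 and 37.5 CPM in KO and 49.9, 46.2 and 40.1 CPM in WT (-0.24 ± 0.11), and was not called.

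Myo5b, a vesicle motor of epithelial recycling, was the 1 unconventional myosin with both KO libraries above all WT libraries. It had 5.61 and 1.98 CPM in KO1 and KO2 and 1.31, 0.913 and 1.41 CPM in WT libraries (log2 fold change 1.65 ± 0.46, SE, edgeR adjusted p = 0.074), and 0.70 without KO1. DESeq2 called it higher (DESeq2 adjusted p = 0.0085). Its relative Myo5a had 7.51 and 1.84 CPM in KO1 and KO2 and 7.34, 5.70 and 4.95 CPM in WT. The KO libraries thus differed by 2.84-fold for Myo5b and 4.08-fold for Myo5a. The other tested members, Myo1f, Myo1g, Myo15b, Myo16, Myo18b and Myo19, were not called by edgeR and averaged 0.211 to 8.15 CPM in WT, and DESeq2 called 1 of them, Myo16, lower (-1.03, DESeq2 adjusted p = 0.020). The 6 that were not tested, Myo1a, Myo1h, Myo3b, Myo5c, Myo7b and Myo15, had at most 36 reads over the 5 libraries.

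Tropomyosins had positive log2 fold changes in all 5 tested genes (median 0.46), although Tpm1 was negative in limma-voom, and 2 of the 5 were called. Tpm4 (ENSMUSG00000031799, chromosome 8, 72134975 to 72153142) encodes a short form found in non-muscle cells and was the most abundant of all the genes described here. It had 1268 and 1266 CPM in KO libraries and 857, 957 and 951 CPM in WT libraries, and the KO values were both the highest and almost equal. Its log2 fold change was 0.46 ± 0.10 (SE, edgeR adjusted p = 0.044), and the call was lost without either KO library (edgeR adjusted p = 0.051 and 0.054) at nearly the same fold. Of the 50-base stretches of its transcripts, 15.7% occur in transcripts of other genes, and those reads are uncertain.

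Tpm2 (ENSMUSG00000028464, chromosome 4, 43514711 to 43523765), the beta form typical of smooth and slow skeletal muscle, was low, with 5.64 and 3.66 CPM in KO libraries and 1.93, 1.44 and 1.60 CPM in WT libraries. All KO values exceeded the WT values, with a log2 fold change of 1.49 ± 0.27 (SE, edgeR adjusted p = 0.029). Without KO1 the log2 fold change was 1.14 and the call was lost (edgeR adjusted p = 0.053).

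Tpm3 and Tpm1 did not pass the test. Tpm3 had 599 and 701 CPM in KO and 505, 550.4 and 571 CPM in WT, with the KO values above the WT values and a log2 fold change of 0.26 ± 0.11 (SE). Tpm1, which smooth muscle and endothelial cells express, had 119 and 189.7 CPM in KO1 and KO2 and 154, 149 and 154 CPM in WT, so KO1 lay below and KO2 above all WT libraries. Its log2 fold change was 0.02 ± 0.18, with -0.37 without KO2 and 0.31 without KO1. Tpm3-rs7, a copy of Tpm3 on chromosome 14, had 7 to 19 reads per library, and 69.4% of its 50-base stretches also occur in Tpm3, so its reads are uncertain.

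Actinins were not called in either direction. Actn4, a non-muscle form that crosslinks stress fibres, had 785 and 816 CPM in KO libraries and 744, 835 and 785 CPM in WT libraries, with a log2 fold change of 0.02 ± 0.10 (SE). Actn1, the other non-muscle form, had 71.6 and 46.7 CPM in KO1 and KO2 and 53.4, 51.6 and 43.9 CPM in WT, and its log2 fold change of 0.25 ± 0.18 was 0.52 without KO2, where it was called higher (edgeR adjusted p = 0.047), and -0.09 without KO1. The muscle forms Actn2 and Actn3 had 0 to 12 reads in KO libraries and 1 to 16 in WT libraries.

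Levels of different genes can be compared per exon length, as TPM (reads divided by the length of the union of annotated exons and scaled to the library). On that scale the regulatory light chains summed to 1103 and 1084 TPM in KO libraries and 774, 845 and 869 TPM in WT libraries. The non-muscle heavy chains summed to 102 and 68.7 TPM in KO1 and KO2 and 172, 155 and 143 TPM in WT1, WT2 and WT3. The ratio of light to heavy chain TPM was thus 10.8 and 15.8 in KO libraries and 4.51, 5.44 and 6.07 in WT libraries, with no overlap between groups. The size of this ratio cannot be read, since it depends on the annotated lengths, which count introns kept in some annotated transcripts. Its change between libraries sets short genes against long ones. Dividing by a fixed length does not remove the trend of fold change with gene length described below. The part of that trend in the change of the ratio was not tested.

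Within families, the major gene was the same in both groups, and the shares of some genes overlapped between groups while those of others did not. Myl9 made up 1.56% and 1.20% of regulatory light chain TPM in KO libraries and 0.615%, 0.434% and 0.660% in WT libraries, and Myl12a 57.4% and 58.8% in KO and 56.2%, 56.7% and 58.4% in WT. Myh9 made up 94.8% and 90.4% of non-muscle heavy chain TPM in KO and 96.9%, 95.9% and 97.1% in WT, with Myh10 as most of the rest. Tpm4 made up 82.9% and 79.8% of tropomyosin TPM in KO and 78.4%, 79.2% and 78.5% in WT. With 2 against 3 libraries the exact permutation test (two-sided) cannot go below 0.2, and of the 14 shares compared 9 had p = 0.2, 2 had p = 0.4 and 3 had p = 0.6.

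**Figure D3:**
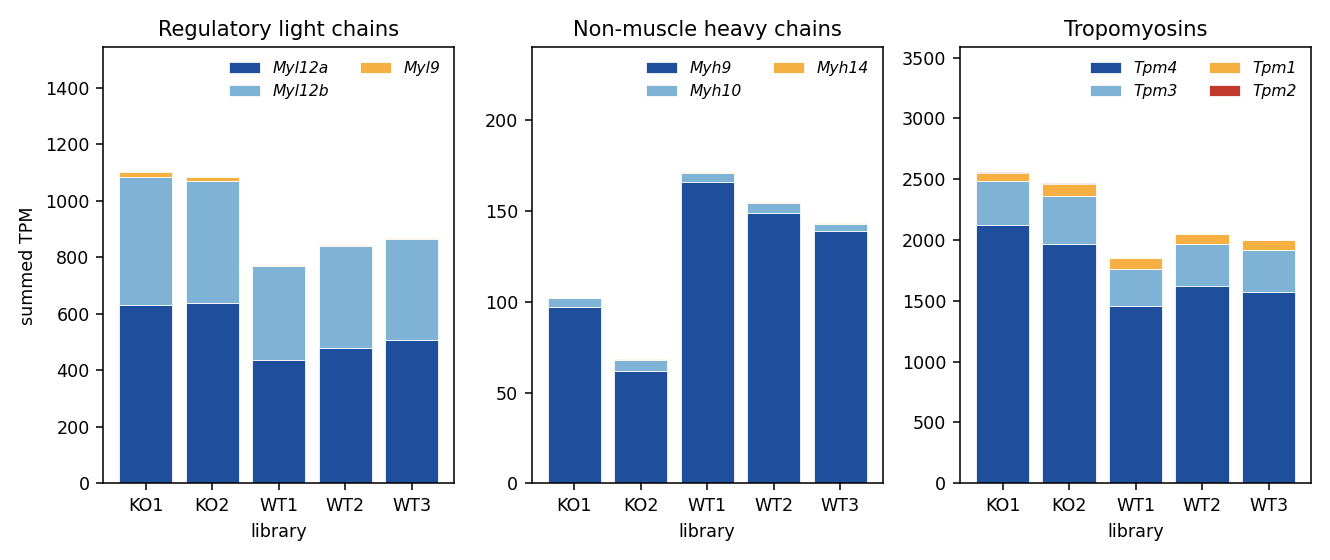
Summed TPM (vertical axes, each from 0) of regulatory light chains, non-muscle heavy chains and tropomyosins in each library (horizontal axes; KO1 and KO2, then WT1 to WT3), with each gene as a coloured segment. KO bars are the higher for light chains and tropomyosins and the lower for heavy chains, and Myl12a, Myh9 and Tpm4 are the largest segments in every library.

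The genes that rose are short and those that fell are long, and gene length itself moved with genotype across the whole table. The 6 higher genes have 1162 to 3360 exon bases, and the 4 lower genes 7496 to 16037. Over all tested genes the median log2 fold change was 0.12 for the 3595 genes of 1.5 to 3 kb, -0.15 for the 1723 genes of 8 to 12 kb and -0.23 for the 809 genes above 12 kb, and 12.5% of the last were called lower. Spearman's rank correlation between exon length and log2 fold change was -0.21 over 15821 genes and -0.46 over the 38 genes described here, values that come from the same 5 libraries.

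When the same fit carried an offset for GC content and exon length, 2 of the 10 called genes stayed higher (Myl9 and Tpm2) and 2 stayed lower (Myh9 and Myo9b), where 2.45% and 1.94% of all genes were called. Myl9 stood at 1.53 ± 0.27 (SE, edgeR adjusted p = 0.031), Tpm2 at 1.38 ± 0.26 (0.037), Myh9 at -0.64 ± 0.13 (0.044) and Myo9b at -0.57 ± 0.11 (0.040). The light chains kept their direction at somewhat smaller folds, with Myl6 at 0.52 ± 0.14 (edgeR adjusted p = 0.087), Myl12a at 0.45 ± 0.12 (0.086) and Myl12b at 0.32 ± 0.10 (0.12). Tpm4 stood at 0.43 ± 0.12 (edgeR adjusted p = 0.092). Myo18a stood at -0.30 ± 0.14 (edgeR adjusted p = 0.24). The class median stood at -0.15 for unconventional myosins and at 0.0079 for heavy chains, and Mylk stood at 0.031. After the offset, Spearman's rank correlation between exon length and log2 fold change was 0.0036 over 15821 genes and -0.33 over the 38 genes described here.

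**Figure D4:**
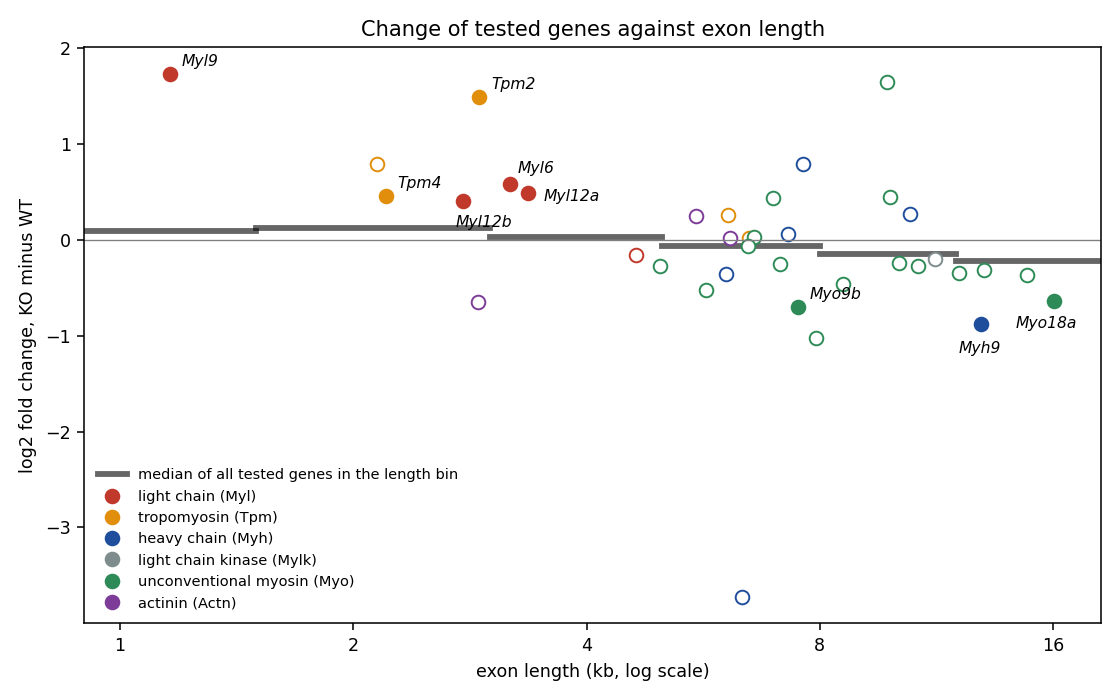
Log2 fold change, KO minus WT (vertical axis), of 37 of the 38 tested genes against exon length (horizontal axis, kb, log scale), coloured by class and filled where called; black bars give the median of all tested genes in each length bin, from 0.12 at 1.5 to 3 kb to -0.23 above 12 kb. Myl9 and Tpm2 lie well above, and Myh9 and Myo9b well below, the bars at their length.

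Actin genes were higher as well. Of 6 actins, 3 were tested and 2 were called higher, where 3.25% of all tested genes were. Actg1, cytoplasmic gamma-actin, had 3826 and 3300 CPM in KO libraries and 2168, 2284 and 2515 CPM in WT libraries (log2 fold change 0.62 ± 0.12, SE, edgeR adjusted p = 0.036), and 0.50 with the length and GC offset, where it was not called. Acta2, smooth muscle actin, had 35.8 and 4.50 CPM in KO1 and KO2 and 1.87, 1.76 and 1.94 CPM in WT (3.44 ± 0.73, edgeR adjusted p = 0.042), so most of its size came from KO1, and it was 1.27 without KO1. Actb, cytoplasmic beta-actin, was not called at 0.51 ± 0.15.

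The other thin and thick filament partners of smooth muscle had positive log2 fold changes in all 13 tested genes (median 0.38), of which 1 was called. That was Pdlim7, a LIM protein of actin bundles, at 138 and 125 CPM in KO and 68.0, 83.6 and 86.7 CPM in WT (0.72 ± 0.12, SE, edgeR adjusted p = 0.025). Of 11 tested genes that end or sever filaments, 3 were higher and 0 lower, namely Tmod2, a cap of the pointed end (1.02 ± 0.16), Dstn, which encodes the severing protein destrin (0.63 ± 0.12), and Gsn, which encodes gelsolin (0.76 ± 0.17). Of 11 tested genes of the SRF group, the transcription factor with its coactivators and targets, Ccn2 was higher (0.81 ± 0.18) and the long adhesion gene Tln1 lower (-0.63 ± 0.12, and -0.42 with the offset, where it was not called). Of 10 chaperones and partners of myosin, Limch1, which encodes an activator of myosin IIA, was higher at 48.0 and 23.5 CPM in KO against 8.38, 15.96 and 11.7 CPM in WT (1.57 ± 0.35, edgeR adjusted p = 0.046). With the length and GC offset, Dstn, Gsn, Ccn2, Acta2 and Rhoc were not called (edgeR adjusted p = 0.050 to 0.12). Of 7 tested sarcomere genes, Mybpc2 was lower (-1.67 ± 0.32), at 1.08 CPM or less in KO libraries. Beside the counts on these lists, 3.25% of all tested genes were called higher and 3.99% lower.

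SRF binds a sequence named the CArG box, and a search of the 250 bases upstream of RefSeq start sites (GRCm38.p6) shows where actomyosin genes hold it. Of 60 symbols, 52 had a window, and the box was in 6 of their 64 windows (Myl9, Myl6, Myl3, Myl7, Myo1e and Myh4). That is 9.38%, against 1.47% of all 32851 windows. Myl3, Myl7 and Myh4 were not tested for expression, and the windows of tested genes held the box in 3 of 38 (7.89%). The pattern searched for was CC, then 6 bases that are each A or T, then GG, and this pattern matches alike on both strands. Of the 6 genes called higher, Myl9 and 1 window of Myl6 hold it, and the windows of Myl12a, Myl12b, Tpm2 and Tpm4 do not. That Myl6 window lies wholly in annotated exons inside the gene, and the other Myl6 window, at the outer start, lacks the box. Myo1e, which edgeR did not call and which had a negative fold, holds one, and the windows of Myh9, Myo18a and Myo9b, which fell, hold none. Myl9, Myo1e and Myh9 are shown as examples with and without the box. The stretches below run up to the start site, except that of Myl9, which stops where an annotated exon begins, and capitals mark the CArG box.
Myl9 (chr2:156775214-156775419, plus strand): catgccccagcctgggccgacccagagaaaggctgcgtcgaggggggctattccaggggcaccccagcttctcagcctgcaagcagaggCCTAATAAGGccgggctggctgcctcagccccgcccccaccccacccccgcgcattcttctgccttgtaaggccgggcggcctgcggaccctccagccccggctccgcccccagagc
Myo1e (chr9:70207100-70207349, plus strand): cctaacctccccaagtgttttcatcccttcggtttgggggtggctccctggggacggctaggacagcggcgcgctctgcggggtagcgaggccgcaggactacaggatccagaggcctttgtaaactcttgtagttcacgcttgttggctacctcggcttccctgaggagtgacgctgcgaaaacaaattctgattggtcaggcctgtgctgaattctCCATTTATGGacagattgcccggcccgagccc
Myh9 (chr15:77842176-77842425, minus strand): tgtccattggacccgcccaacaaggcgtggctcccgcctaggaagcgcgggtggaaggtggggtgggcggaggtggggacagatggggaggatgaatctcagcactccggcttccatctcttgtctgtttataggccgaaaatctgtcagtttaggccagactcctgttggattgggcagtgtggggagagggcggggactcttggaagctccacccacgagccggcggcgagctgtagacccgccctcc
Counted from the start site, the box begins at base -161 in Myl9 and at base -32 in Myo1e. A match is a description of letters and shows neither binding nor use.

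Myl9, Tpm2 and Myh11 are also markers of smooth muscle cells and pericytes, which sorting on CD31 should leave out. Of 13 other markers of those cells (Cnn1, Tagln and Des are also among the smooth muscle partners above), 10 were tested, 2 were higher (Kcnj8, 0.69 ± 0.13, and Mcam, 0.54 ± 0.12, SE) and 0 lower. The log2 fold change was positive for 6 of the 10 and negative for 4. The list summed to 169 and 158 CPM in KO libraries and 162, 127 and 128 CPM in WT libraries. Most of that sum came from genes other than Pdgfrb, Cnn1, Tagln and Des, so it need not follow them. Of single genes, Pdgfrb had 3.10 and 1.13 CPM in KO and 2.49, 2.90 and 2.33 CPM in WT, and the calponin gene Cnn1 had 2.54 and 0.309 CPM in KO and 0.197, 0.465 and 0.0192 CPM in WT. Tagln, which encodes the actin-binding protein transgelin, had 7.69 and 6.98 CPM in KO and 2.46, 5.00 and 3.33 CPM in WT, and the desmin gene Des had 5.73 and 7.08 CPM in KO and 4.55, 3.64 and 4.14 CPM in WT. For both, the KO libraries lay above all WT libraries and the test was not passed (1.03 ± 0.30 and 0.64 ± 0.19, SE, edgeR adjusted p = 0.082 and 0.091). Myocd and Higd1b were at or near 0. Of 10 blood endothelial markers, all tested, 7 were called higher and 0 lower, where 3.25% and 3.99% of all genes were. The log2 fold change was positive for 9 of the 10, at a median of 1.23. Their sum was 2978 and 3879 CPM in KO and 2878, 2545 and 2875 CPM in WT. Platelets are rich in myosin IIA, Myl9 and Tpm4. Of 5 tested platelet markers 3 were lower (Clec1b, Pf4 and Gp1ba) and 0 higher, where 3.99% and 3.25% of all genes were. The platelet list summed to 997 and 1262 CPM in KO and 2013, 1439 and 1782 CPM in WT. Most of that sum came from Itga2b, which was not called (edgeR adjusted p = 0.085), so the sum mainly follows that gene and does not measure platelets. Fibroblastic markers summed to 1118 and 523 CPM in KO1 and KO2 and 515, 521 and 368 CPM in WT, and epithelial markers to 36.0 and 6.41 CPM in KO1 and KO2 and 2.47 to 10.8 CPM in WT, so KO1 stood highest in both. Macrophage markers summed to 12.3 and 13.1 CPM in KO and 15.9 to 21.9 CPM in WT, and lymphocyte markers to 10.5 and 13.8 CPM in KO and 6.02 to 11.4 CPM in WT. The part of these cells in the actomyosin values was not tested.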

How the data were processed

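LECs were sorted as CD31+ podoplanin+ cells free of CD45 and TER119, and poly(A) RNA was sequenced as single 50-base reads after SMART-Seq v4 amplification, per the labels' protocols. That kit does not mark strand, so overlapping genes on opposite strands cannot be told apart. The deposited file holds raw read counts per Ensembl gene (unit stated per the file headers). Tools named in the submitters' processing notes are HTSeq 0.6.1, TopHat2 2.0.14, bcl2fastq 2.17.1.14 and Bowtie2 2.1.0, with mm10 as build. The annotation release, the settings and how multi-mapping reads were treated are not stated. Of 27843 genes, 27648 were named from GENCODE M21 (same build).

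The test was edgeR 4.0.16 in R 4.3.3 (filterByExpr with minimum count 10, TMM, robust dispersion, glmQLFit and glmQLFTest), KO against WT, with Benjamini-Hochberg adjustment over all genes and 0.05 as threshold. The SE of a log2 fold change is its size over the root of the F statistic. CPM uses TMM-scaled library sizes, and TPM divides by the union of exons. The fit was tested on simulated counts. Isoform shares were compared with SciPy 1.17.1. Alternatives used DESeq2 1.42.0, limma 3.58.1 (voom), other scalings and filters, an offset for GC content and exon length (loess, span 0.5), a replicate block and each library left out.

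Genes named were all called members (results for some items are not reported here), other members with a mean of at least 10 CPM, and up to 4 genes with the smallest p per list. Other member genes, and Mylk2 to Mylk4, Rock1, Rock2, Ppp1r12a, Ppp1cb, Pdgfrb, Cnn1, Des, Myocd and Higd1b, were named after their values were seen. The members and lists were chosen with earlier results of these data known. The sequences are from RefSeq and GENCODE tables.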

Additional observations from a re-analysis of the deposited data

How the results depend on the processing

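The counts of 6 higher and 4 lower actomyosin genes were 2 and 2 with the offset for GC content and exon length. With the replicate number as a replicate block they were 0 and 0, where edgeR called 0 of all 15874 genes. The numbers mark no stated litter or day. Deviations from the group mean of same-numbered libraries correlated at 0.048 (KO1 and WT1) and -0.052 (KO2 and WT2). With 2 KO libraries, the KO1 and KO2 deviations mirror each other, so these values cannot tell whether same-numbered libraries share a litter or day. The count of lower genes was 8 with DESeq2 and 9 at a threshold of 0.1. Leaving out a library gave 0 to 5 higher and 0 to 7 lower. For heavy chains, the 1 lower gene became 2 at a threshold of 0.1, 0 with the block and 0 to 2 without single libraries. For light chains, the 4 higher genes became 1 with the offset, 0 with the block and 0 to 4 without single libraries. The cause was not tested.

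Of 345 values for 23 genes under an alternative, 264 kept their direction and side of the threshold, 53 lost their call, 14 gained one and 14 changed sign, all 14 in genes not called. With a library left out, the log2 fold change ranged from -0.093 to 0.52 for Actn1, from -0.016 to 0.067 for Actn4, from -0.49 to 0.024 for Mylk, from -0.37 to 0.31 for Tpm1, from -0.054 to 0.096 for Myo1c and from -0.31 to 0.13 for Myo1d. It was 0.031 for Mylk and 0.019 for Myo1d with the offset, -0.023 for Tpm1 with limma-voom, and -0.013 for Tpm1 and -0.0028 for Myo1c with the block. The KO minus WT difference in share ranged from -0.021 to 0.751 percentage points for Myh14, from -0.569 to 2.64 for Actn1 and from -2.64 to 0.569 for Actn4. Depth limits Myl9 and Tpm2, at 71 to 309 reads per library, more than the other called genes.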

Other observations

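The 2 KO libraries differed from each other in several actomyosin genes whose WT libraries were close together. Actn1 was 1.53-fold and Tpm2 1.54-fold higher in KO1 than in KO2, while Tpm1 stood at 0.626 and Mylk at 0.702 of the KO2 level. In contrast, Tpm4 differed by 1.00-fold between KO1 and KO2 and Myl12b by 0.970-fold. Myo1a, the brush border myosin, had 33 reads in KO1, 2 in KO2 and 0 to 1 in WT libraries, and it was too low for the filter.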
